A study of Mus musculus with 4 samples.

Results

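The miR-26 family was followed through the eCLIP-seq libraries of overloaded mouse plantaris as the pair mmu-miR-26a-5p and mmu-miR-26b-5p, written without the species prefix below. Its members were chosen by name, and a place counted as a miR-26 site when a peak listed reads of either. Of the 93468 lines of the control library, each giving 1 miRNA in 1 peak, 3479 named the family, and of the 100897 lines of the mimic library, 3987 did. Pooled by peak, these were 2780 sites among 20754 distinct peaks in the control-injected muscle and 3227 sites among 21872 in the mimic-injected muscle.

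In chimeric eCLIP-seq, Ago2 is crosslinked to RNA and pulled down, and ligation joins the miRNA to the piece of target held with it, so that each chimeric read identifies both partners. Adult 5-month-old male mice underwent 10 days of mechanical overload (MOV) of the plantaris by partial removal of its synergists. The left plantaris had received a scrambled control lentivirus (MOV_Control) and the right plantaris a lentivirus for a miR-1 mimic (MOV_Mimic), both with a CMV promoter and a TurboGFP reporter, so that overload, virus and reporter were common to both groups. Of the 4 libraries in the series the 2 MOV libraries were used, with 1 library in each group, and the input libraries were not analysed here. Lentivirus does not reach every fibre, and each library was made from muscle tissue, so fewer cells of a type and less RNA per cell cannot be told apart. The control library summed to 232408 chimeric reads and the mimic library to 259207, a ratio of 1.12. With 1 library in each group there was no replicate spread and no test between conditions. All intervals are 95% intervals on reads rounded to whole numbers and cover counting error only.

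A miRNA finds its targets mainly through its seed, the bases near its 5′ end, which pair with matching sites in messenger RNAs, most effectively in the 3′ UTR. miR-26a and miR-26b are made from introns of the Ctdsp genes, which encode small phosphatases of the RNA polymerase II tail and of SMAD proteins. In muscle the family is known for favouring differentiation of myoblasts, with the histone methyltransferase Ezh2 and the BMP and TGF-beta transducers Smad1 and Smad4 among its reported targets. The mature sequences, from RefSeq on GRCm38.p6, are given 5′ to 3′ with the seed, bases 2 to 8, in capitals.
mmu-miR-26a-5p: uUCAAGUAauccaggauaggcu
mmu-miR-26b-5p: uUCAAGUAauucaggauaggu

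The seeds were identical. Counted from 1 at the 5′ end of miR-26a-5p, the members differed by C11U and C21U, and miR-26b-5p ended 1 base earlier, at 21 bases against 22. miR-26a-5p came from loci on both chr9:119031811-119031832, in Ctdspl, and chr10:126995543-126995564, in Ctdsp2, and miR-26b-5p from chr1:74394324-74394344, in Ctdsp1, all on the plus strand. Reads of an 8-base match are therefore shared by both members by sequence, and only bases outside the seed set them apart. The opposite arms were nearly absent. miR-26b-3p had 1 line of 0.987 reads in the control and miR-26a-2-3p had 1 line of 2 reads in the mimic.

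The family's sites rested on few reads apart from a small set of strong ones. The median site held 1 read in both libraries, and 49.8% of the control sites and 49.95% of mimic sites held less than 1 read, since the deposited values are fractional. Sites of 3 or more reads numbered 534 for the control and 553 for the mimic. The 109 control and 136 mimic sites of 10 or more reads held 47.5% and 50.4% of the family's reads.

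Summed over sites, the control held 8216 reads of the family (8039 to 8396) and the mimic 9343 (9155 to 9534), a ratio of 1.14 (1.1 to 1.17). All other miRNAs differed by 1.11 (1.11 to 1.12) between the same libraries, and after division by the library totals the family's ratio was 1.02 (0.990 to 1.05), an interval that held 1. Among 146 other miRNAs with at least 50 lines in each library the ratios had a median of 1.05 and a 5th to 95th percentile of 0.763 to 1.47. Of these, 45 had a higher ratio than the family and 101 a lower one. The family thus took a like share of reads in both muscles, 3.54% for the control (3.46 to 3.61%) and 3.6% for the mimic (3.53 to 3.68%).

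Because the peaks were listed with a miRNA and not with a matching base, the seed was looked up in the target genes. The motif TACTTGAA, the 8-base match, pairs with bases 2 to 8 of the miRNA and has an A opposite base 1. TACTTGA is its 7-base form without that A, ACTTGAA its 7-base form with it, and both overlap the 8-base match. The search ran on the sense strand of GENCODE M1 protein-coding transcripts, with 1 transcript for each gene, and 95.1% of control and 96.0% of mimic target genes could be matched by name. The genome given was of mm9 and the peaks lay on GRCm38, so no base of a peak was read by coordinate. Instead, the distance of a site from the annotated 3′ end of its gene and that of the motif from the end of its transcript were each measured within its own annotation and set side by side.

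The target sites below are shown because a site of the family fell on each of them in both libraries. They were chosen after their values were seen, from strong sites and from often-reported targets. Each is a stretch of 30 bases of a 3′ UTR that ends with the match to the seed, in capitals.
Ttn: aactatgcatttcaatcctttcaTACTTGA
Fam160a1: tctactttgatatttcctgacaaTACTTGA
Col1a2: tgctaattagtagtatttcagaTACTTGAA
Mknk2: ttgcttccctgttcttgaagagTACTTGAA
Mat2a: cggggaggaggaaatcccttcaTACTTGAA
Prkcd: aactgtaaatcctgtgtttcatTACTTGAA
Igf1: gtgctattgtttctttaagaaagTACTTGA

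In Ttn, which encodes the giant sarcomeric spring titin, the match was followed by 879 bases of transcript. The site with the most reads of the family, chr2:76704788-76704865 on the minus strand, lay 808 to 885 nt from the end of the gene and held 257 control and 351 mimic reads. A second peak began 1 base further upstream, at chr2:76704866-76704933, and held 191 and 238 reads. The 7-base match of Fam160a1, a member of the FTS and Hook-interacting protein family, was followed by 781 bases. Its only site, chr3:85660780-85660918, lay 717 to 855 nt from the gene end, with 73.8 and 97.7 reads. These were 85.5% and 91.9% of the reads that all miRNAs had on Fam160a1. In Mknk2, a kinase of the translation factor eIF4E, 535 bases followed the match and the site at chr10:80665804-80665907 lay 486 to 589 nt from the end, with 45.7 and 42.2 reads. In Mat2a, which makes the methyl donor S-adenosylmethionine, 422 bases followed the match, and the site at 343 to 489 nt held 31.0 control and 46.4 mimic reads. The site positions and the match positions met within each of these genes.

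Over all target genes with exactly 1 such 8-base match, the same held for most of the stronger sites. Of 96 control sites of 3 or more reads in these genes, 54 spanned the distance of the match (56.2%), and of 106 mimic sites 70 did (66.0%). Among peaks of 3 or more reads in the same kind of genes that held no miR-26 read, 1 of 344 in the control (0.291%) and 2 of 382 in the mimic (0.524%) spanned it. Limited to peaks within the length of the 3′ UTR, the shares were 70.1% and 79.5% for miR-26 sites against 0.690% and 1.22% for the others. Seen the other way, 91 of the 93 control peaks over the distance of the match held miR-26 reads, and 102 of the 105 mimic peaks. These peaks lie only in genes chosen for holding a miR-26 site, so the choice of genes itself raises this share. Genes bound by other miRNAs only were left out, and 189 of them in the control and 196 in the mimic had the match. Peaks with a miR-26 read were taken out of the comparison set, so the low share there describes which peaks lacked the family. Sites that spanned the match held a median of 4.03 control and 4.41 mimic reads, against 0.989 and 1 at the family's other sites in these genes. They summed to 594 control and 745 mimic reads, and the other sites, which include the main site of Col1a2 described below, to 685 and 696. Genes without the match are not covered by this comparison. Among genes with many miR-26 reads, the 3′ UTRs of Aldoa, Col1a1, Col5a2, Rps12, Mybpc1, Myh1, Neb and Klhl41 held no 7- or 8-base match. Sites on these genes can lie outside the 3′ UTR.

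**Figure D1:**
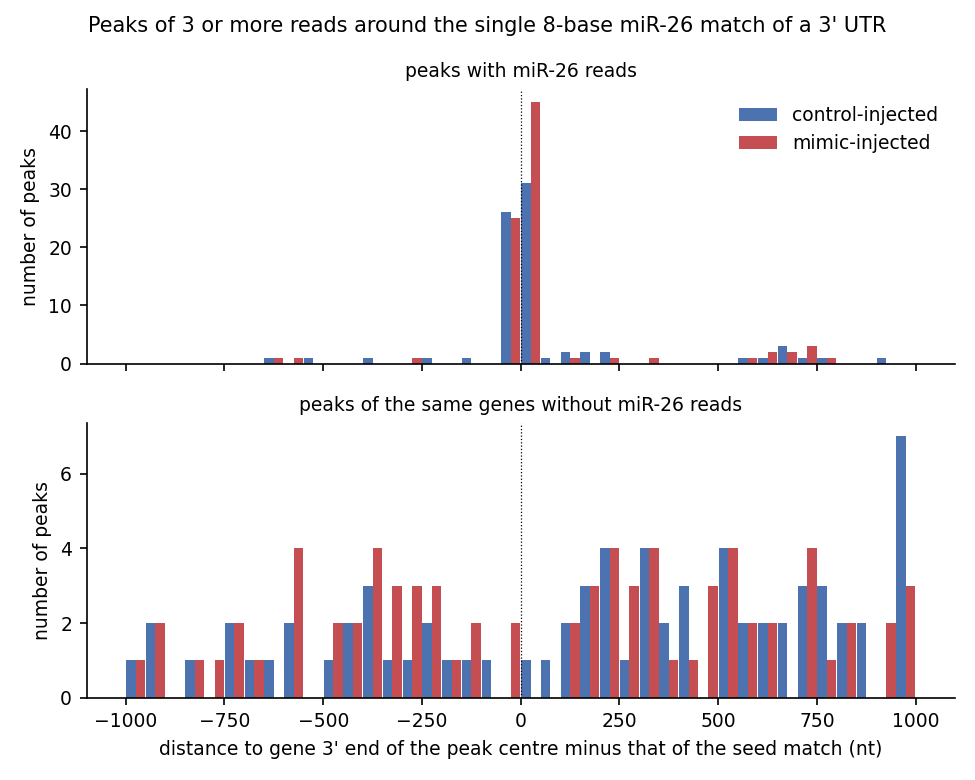
Distance of the peak centre from the annotated 3′ end of its gene minus that of the single 8-base match from the end of its transcript, in nt, for peaks of 3 or more reads; bars count peaks in 50 nt bins, within 1000 nt either way. Peak centres within 50 nt of the match numbered 57 in the control and 70 in the mimic among peaks with miR-26 reads (top), and 1 and 2 among peaks without (bottom).

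The share of genes with the motif also followed the reads. Of the genes bound by any miRNA, 6.14% in the control and 6.27% in the mimic had the 8-base match in the 3′ UTR, and of those bound by other miRNAs only, 4.08% and 4.16%. It stood at 5.81% and 5.47% of genes whose best miR-26 site had less than 1 read, at 10.8% and 10.4% for 1 to under 3 reads, at 22.7% and 23.3% for 3 to under 10 reads and at 26% and 27.8% for 10 or more. Counted for each kb of 3′ UTR, 8-base matches occurred 0.127 and 0.119 times in genes of 3 or more reads, against 0.0250 and 0.0267 in genes bound by other miRNAs only. In the coding sequence the match occurred in 8.98% and 9.79% of genes of 3 or more reads against 2.09% and 1.83%.

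Other families gave a check on the motif. Targets of let-7, miR-27 and miR-30 with a site of 3 or more reads held the miR-26 match in 6.83%, 5.21% and 11.7% of genes in the control, and in 6.40%, 6.27% and 10.6% in the mimic. Each share was below the 23.3% and 24.3% of the miR-26 targets. The miR-27 match stood in 8.01% and 8.59% of miR-26 targets and in 20.4% and 22.6% of miR-27 targets, and the miR-30 match in 15.05% and 13.8% of miR-26 targets and 42.2% and 43.3% of miR-30 targets. let-7 was set apart less, with its match in 4.61% and 4.06% of miR-26 targets and 9.07% and 9.66% of its own, where the miR-30 match stood in 10.3% and 10.9%. A gene can be a target of several families, so these groups share genes.

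**Figure D2:**
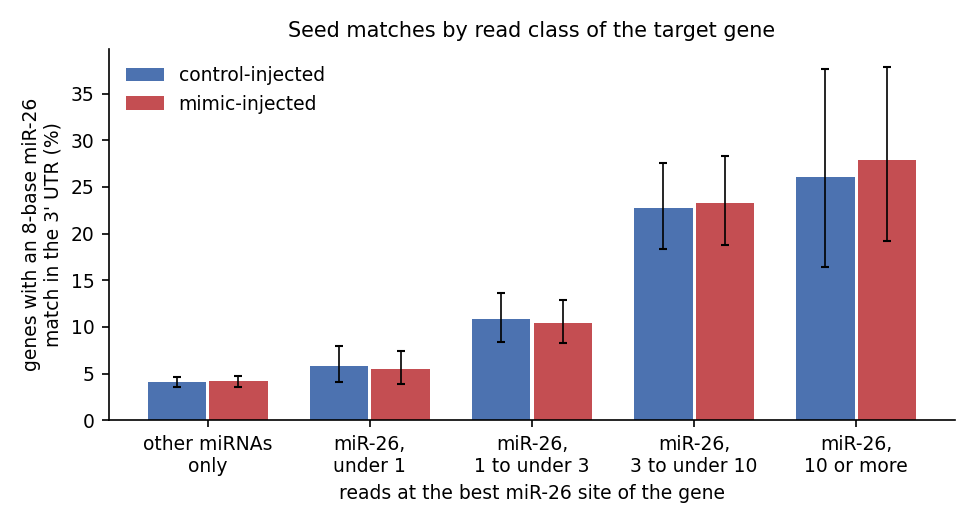
Share of genes with the 8-base miR-26 match in the 3′ UTR, in percent, by the reads at the best miR-26 site of the gene, in the control (blue) and the mimic (red); error bars are exact binomial intervals. The share was 4.08% and 4.16% in genes bound by other miRNAs only and 26% and 27.8% in genes with a site of 10 or more reads.

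The sites lay towards the 3′ ends of genes. Of miR-26 sites of 3 or more reads in protein-coding genes, 39.2% of the control's (34.8 to 43.7%) and 42.2% of the mimic's (37.9 to 46.6%) were within 2000 nt of the gene end, against 33.0% and 33.2% for peaks of any miRNA. let-7 was lower, at 29.8% and 30.7%, and miR-30 higher in the control, at 47.2%, and similar in the mimic, at 43.1% (37.5 to 49.0%). Introns count in these distances, since exons of GRCm38 were not used here.

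At its sites the family was often the leading miRNA. It had more reads than any other seed family at 34.9% of its control sites (33.2 to 36.7%) and 33.3% of its mimic sites (31.7 to 35.0%), against 25.4% and 24.8% over the sites of all families. At sites of 3 or more reads these shares were 77.7% and 73.8%, against 64.4% and 63.8%, and the family held a median of 69.5% and 67.7% of all reads in the peak. It was alone in 188 peaks of the control and 211 of the mimic.

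miR-26b-5p was the minor member, with 18.1% of the family's control reads (17.3 to 18.9%) and 18.3% of its mimic reads (17.5 to 19.1%). It had 957 sites in the control, of which 699 also held miR-26a-5p (73.0%, 70.1 to 75.8%), and 1045 in the mimic, of which 760 did (72.7%, 69.9 to 75.4%). Peaks often list several miRNAs. The abundant miR-133a-3p stood in 41.1% of the control and 43.5% of the mimic sites of miR-26b-5p, and miR-1a-3p in 37.4% and 41.0%. Sites with miR-26b-5p and no miR-26a-5p reached at most 2.97 and 2.60 reads, so 0 had 3 or more in either library. The ratio of mimic to control reads was 1.13 (1.1 to 1.17) for miR-26a-5p and 1.15 (1.07 to 1.23) for miR-26b-5p. How the authors' pipeline chose a name for a read that fits both members was not given in the sources used here.

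At 47 sites where both libraries had at least 20 reads, the miR-26b-5p share ran from 2.75% to 46.6% in the control, with a median of 20.4%, and from 3.95% to 56.3% in the mimic, with a median of 18.6%. A site's share in the control and its share in the mimic went together as a description over these 47 sites, with Pearson's r of 0.63 and Spearman's rho of 0.59. A single site had an interval above the pooled share in both libraries. It lay in Ttn at chr2:76769764-76769808, where miR-26b-5p had 46.6% of 44.2 reads in the control and 56.3% of 98.0 reads in the mimic. A single site was below in both, in Txnl1, a thioredoxin-like protein of the proteasome, at 2.75% and 3.95%.

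The stronger a site was in the control, the more often a miR-26 site overlapped it in the mimic. Of all control sites 43.4% (41.5 to 45.2%) were overlapped, where the background over the sites of all seed families was 37.3%. By reads, the shares were 28.1% for sites under 1 read, 43.3% for 1 to under 3, 79.3% for 3 to under 10 and 98.2% for 10 or more, and other families stood at 24%, 39.5%, 80.3% and 98.3%. Above 3 reads the family was therefore found again about as often as the rest.

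At the 1137 shared sites the median log2 ratio of mimic to control reads was 0.05 (0.00 to 0.15), and all chimeric reads differed by 0.16 on the same scale. The median was 0.08 at the 315 shared sites with 3 or more reads in both libraries, where the SD was 0.69. Other families had medians of 0.06 and 0.09. After division by library totals, 26 of the 315 sites were at least 2-fold higher in the mimic (8.25%), against a background of 6.60% over all families, and 25 were at least 2-fold lower (7.94%), against 8.61%. These shares were near the background in either direction. On reads as deposited, without that division, 35 sites were at least 2-fold higher and 14 lower.

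**Figure D3:**
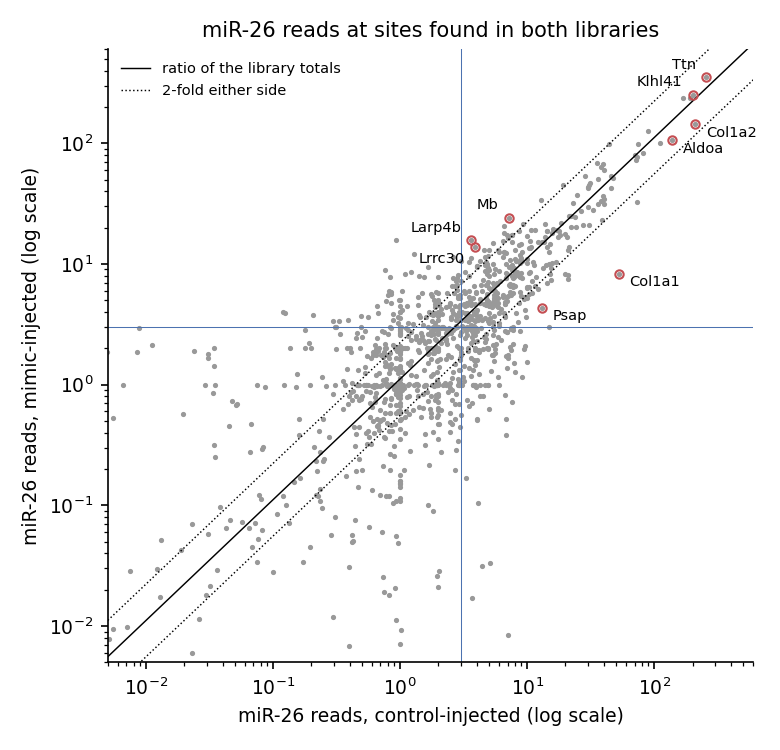
miR-26 reads at the 1137 sites found in both libraries, control on the x axis and mimic on the y axis, both log scales; the solid line is the ratio of the library totals, dotted lines are 2-fold either side, thin lines mark 3 reads, and points under 0.005 reads lie outside the axes. The sites with the most reads of Ttn and Klhl41 lie above the line and those of Col1a2 and Aldoa below it, and the low Col1a1 point, 52.5 against 8.26 reads, is a peak that was divided in the mimic.

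The highest ratios were at weaker sites. Larp4b, an RNA-binding protein of the La family, went from 3.64 to 15.7 reads at chr13:9172215-9172278, a ratio of 4.31 (1.29 to 16.4). Lrrc30, a leucine-rich repeat protein, went from 3.86 to 13.9 reads, and Mb, the oxygen store myoglobin, from 7.19 to 24.2 reads at chr15:77017637-77017760, a ratio of 3.37 (1.43 to 9.42). The lowest ratio was in Col1a1 at chr11:94937943-94938059, from 52.5 to 8.26 reads. With overlapping sites of both libraries merged, as an alternative chosen after seeing the data, the same stretch of Col1a1 held 57.3 control and 48.3 mimic reads, a ratio of 0.842 (0.561 to 1.26). The next were Gm7820, a predicted gene, from 14.9 to 3 reads, and Psap, the precursor of the lysosomal saposins, from 13.1 to 4.32 reads.

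Few strong sites stood in 1 library only. Of the control sites 1574 had no mimic counterpart, with 90 of them at 3 or more reads and 2 at 10 or more, and of the mimic sites 2023 had none, with 102 and 2. For the control this was near other families. At 3 to under 10 reads 79.3% of miR-26 sites were overlapped, against 80.3%, and at 10 or more 98.2%, against 98.3%. No such background is given for the mimic sites. The strongest in the control were in Myh3, the embryonic myosin heavy chain, with 17.6 reads, in Mob1a, an adaptor of the Hippo kinases, with 11.4, and in Rps12, with 9.46 next to its main site. On Myh3 the reads of all miRNAs were 155 for the control and 45.6 for the mimic, so other miRNAs were lower there too. The strongest in the mimic were in Myh1 with 19.6 reads, Ttn with 11.0 and Mtpn, the actin-capping regulator myotrophin, with 9.43.

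By gene, 1687 control genes and 1885 mimic genes had a site, which were 25.3% and 27.1% of the genes bound by any miRNA, and 432 and 442 had one of 3 or more reads, 6.49% and 6.36%. The libraries shared 994 genes, 58.9% of the control genes and 52.7% of the mimic genes, where the background over the pairs of any seed family with a gene was 47.1% and 44.8%. With a site of 3 or more reads 263 genes were shared, 60.9% and 59.5%, against 62.8% and 59.7%. With 10 or more, 63 of 81 control and 104 mimic genes were shared, 77.8% and 60.6%, against 79.0% and 72.3%.

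Ttn led in both libraries. It held 1069 control reads at 104 sites (1006 to 1135) and 1463 mimic reads at 129 sites (1389 to 1540), 13% and 15.7% of the family's reads. Its ratio was 1.37 (1.26 to 1.48), and other miRNAs on Ttn had a ratio of 1.34 (1.32 to 1.37). The 4 sites with the most reads held 65.8% and 65.0% of the gene's miR-26 reads. Besides the pair at the 3′ end, these were chr2:76717370-76717478, with 167 and 235 reads, and chr2:76885163-76885252, with 88.6 control and 126 mimic reads, both higher in the mimic.

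Other sarcomere genes went in both directions. On Myh1, the fast IIx myosin heavy chain, the family had 53.3 control reads at 31 sites and 150 mimic reads at 43 sites, a ratio of 2.82 (2.06 to 3.95), and other miRNAs there had a ratio of 1.77 (1.72 to 1.83). On Acta1, skeletal muscle actin, it had 45.4 and 91.9 reads, a ratio of 2.02 (1.42 to 2.99), with other miRNAs at 1.12. On Neb, the thin-filament ruler nebulin, the values were 71.7 and 71.9 reads. Myh4, the fast IIb myosin, had 49.9 and 33.3 reads, with other miRNAs at a ratio of 0.782. On Mybpc1, slow myosin-binding protein C, the family's reads were 90.0 and 72.9, a ratio of 0.81 (0.587 to 1.12), where other miRNAs had a ratio of 1.55 (1.37 to 1.75). Myosin genes are close in sequence, so reads could be divided among them by the alignment.

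**Figure D4:**
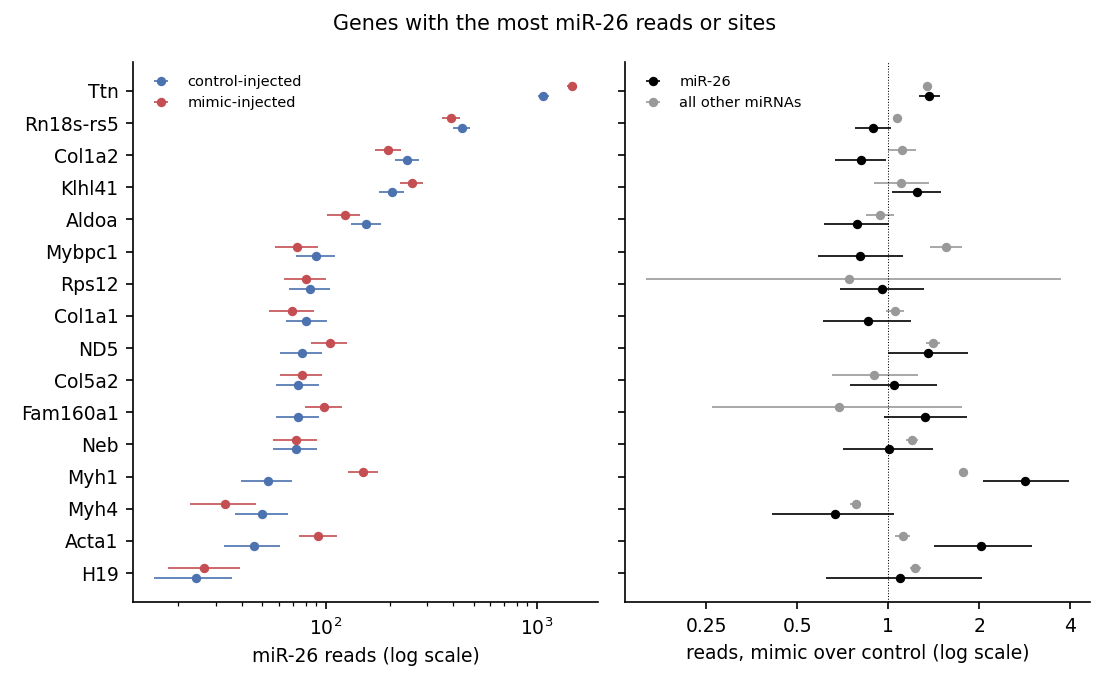
Left, miR-26 reads on the 16 named genes in the control (blue) and the mimic (red), log scale, with exact Poisson intervals. Right, ratio of mimic to control reads for miR-26 (black) and for all other miRNAs (grey) on the same gene, log scale, with exact intervals. Myh1 and Acta1 had a higher ratio for miR-26, 2.82 and 2.02, than for other miRNAs, 1.77 and 1.12, and Mybpc1 a lower one.

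Over the whole list of 35 sarcomere and Z-disc genes, all bound by some miRNA in both libraries, 25 had a control site and 28 a mimic site, where 25.3% and 27.1% of all bound genes did. A site of 3 or more reads stood on 14 and 12, against 6.49% and 6.36% of all bound genes. The list summed to 1515 control and 2009 mimic reads, a ratio of 1.33 (1.24 to 1.42), and to 1.23 (1.08 to 1.39) without Ttn. Other miRNAs on these genes had a ratio of 1.27 (1.26 to 1.29). The list held 18.4% and 21.5% of the family's reads against 20.3% and 23.2% of the reads of all miRNAs. On 11 calcium-handling genes the family had 52.3 and 75.9 reads, led by the calcium pump Atp2a1 with 24.4 and 35.5 and by triadin, Trdn, with 15.9 and 25.7. All 10 genes used to check the muscle label, among them Ckm, Ryr1 and Tnnt3, had a miR-26 site in both libraries. These 10 genes also held 16.8% and 19.7% of the reads of all miRNAs, and the part of that in their count was not tested.

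Matrix genes were lower in sum in the mimic. Col1a2, a chain of type I collagen, held 243 control reads (213 to 276) and 197 mimic reads (170 to 227), a ratio of 0.811 (0.668 to 0.982), while other miRNAs on Col1a2 had a ratio of 1.11 (1 to 1.23). Its main site differed from its seed site. The peak at chr6:4540542-4540656 went from 210 to 144 reads, a ratio of 0.684 (0.551 to 0.852). It lay 887 nt or more from the gene end, and the 3′ UTR was 881 bases long. These lengths come from different annotations and are close, so whether the peak lay outside the 3′ UTR cannot be told. The peak at chr6:4541144-4541235, 308 to 399 nt from the end where 334 bases followed the 8-base match, had 29.96 and 42.7 reads. Of the other collagens, Col1a1 had 80.8 and 69.2 reads, and Col5a2, a fibril-regulating chain, 73.9 and 77.2, which was 47.0% and 50.8% of all miRNA reads on it. Among weaker collagens Col3a1 had 16.5 and 9.69 reads, a ratio of 0.586 (0.241 to 1.36), and Col15a1 6.14 control reads and no mimic site. Postn, the matricellular protein periostin, had 15.4 control and 2.7 mimic reads, a ratio of 0.176 (0.0371 to 0.707), and Ccn2, a growth factor of fibrosis, 15.9 and 11.1. Sparc, also on the matrix list, was higher in the mimic, with 7.02 and 11.4 reads, a ratio of 1.63 (0.556 to 4.78). Matrix genes without a site of 3 or more reads went both ways, such as Fn1 with 0.131 and 3.84 reads and Col5a3 with 2.09 and 0.

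The 25 matrix genes summed to 468 control and 396 mimic reads, a ratio of 0.846 (0.738 to 0.969). Without Col1a2 the ratio was 0.884 (0.727 to 1.08). Its interval held 1 and the median of 1.05 over the 146 other miRNAs, but not the 1.12 of the library totals. All 25 were bound by some miRNA in both libraries. A site stood on 18 of these genes in each library, 13 of them in both, where 25.3% and 27.1% of all bound genes had one. A site of 3 or more reads stood on 8 and 6, against 6.49% and 6.36% of all bound genes. All miRNAs together had 9963 control and 9308 mimic reads on the list, and the part of that in these counts was not tested. Other miRNAs on the same genes had a ratio of 0.939 (0.912 to 0.966). The list held 5.69% and 4.23% of the family's reads against 4.29% and 3.59% of the reads of all miRNAs. The 3 fibroblast markers, which include Col1a1, had 82.2 and 72.3 miR-26 reads and ratios of 0.880 for miR-26 and 1.03 for other miRNAs. On 12 markers of macrophages, endothelium, satellite cells and fibroblasts, the last by Pdgfra alone without the matrix genes Col1a1 and Dcn, all miRNAs together had 137 control and 194 mimic reads, 0.0590% and 0.0750% of all reads, and the family 1.01 and 7.91. Pax7 and Myf5 had 0 reads of any miRNA. The part of cell composition in these differences was not tested.

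Energy metabolism was led by Aldoa, the glycolytic aldolase A, with 155 control and 122 mimic reads, a ratio of 0.788 (0.616 to 1), and other miRNAs at 0.940. Pfkm, muscle phosphofructokinase, had 28.7 and 17.9 reads. The 16 genes of the list summed to 205 and 167 reads, a ratio of 0.814 (0.660 to 1), where other miRNAs had 1.09 (1.05 to 1.13). The interval of the list's ratio held 1, but not the 1.12 of the library totals, and it lay below the interval of other miRNAs. This rested on Aldoa. Without Aldoa the ratio was 0.897 (0.584 to 1.38), an interval that held 1, the 1.12 and the 1.09 of other miRNAs.

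Klhl41, a kelch protein that stabilises nebulin, had 205 control and 254 mimic reads, a ratio of 1.24 (1.03 to 1.5), nearly all at chr2:69670382-69670523. The family held 53.9% and 56.9% of the miRNA reads on Klhl41. No 7- or 8-base match stood in its 3′ UTR of 631 bases. The control site lay 13716 nt from the end of this gene of 14120 nt, so that search does not speak to the site or to the rest of the transcript. Otud1, a deubiquitinase, had 72 and 77.5 reads, of which 71.7 and 72 lay at chr2:19660066-19660147. Its 3′ UTR holds the 8-base match, but the site did not span it in distance.

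Some of the largest read sums came from repeated or structural RNAs. The ribosomal RNA locus Rn18s-rs5 had 440 and 392 reads, but the family made up only 2.82% and 2.36% of the miRNA reads there, and the mitochondrial gene ND5, a subunit of respiratory complex I, 77.1 and 104 reads, 3.19% and 3.06%. Copies of these sequences elsewhere in the genome can share their reads. H19, an imprinted long noncoding RNA, had 13 and 12 sites with 24.2 and 26.5 reads. Rps12, a ribosomal protein gene, was the reverse case. There the family held 94.3% and 95.5% of all miRNA reads, 84.0 control and 80.4 mimic reads. Its main site, chr10:23786493-23786544, overlapped an annotated small nucleolar RNA, LOC115487513 at chr10:23786470-23786543, whose strand was not known here.

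The often-reported miR-26 targets carried under 1% of the family's reads. Of 26 such genes, 18 in the control and 19 in the mimic were bound by any miRNA, and 13 in each library had a miR-26 site, where 25.3% and 27.1% of all bound genes did. Sites of 3 or more reads stood on 3 and 7 of them, against 6.49% and 6.36% of all bound genes. They summed to 41.8 control and 56.8 mimic reads, a ratio of 1.36 (0.895 to 2.07), or 0.508% and 0.608% of the family's reads. The ratio without Igf1 was 1.71 (1.05 to 2.77), on 28.7 control and 49.0 mimic reads. That interval held the 1.12 of the library totals. The family held 6.31% and 8.69% of the miRNA reads on these genes, against 3.54% and 3.6% of all reads.

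Among growth and signalling targets, Igf1, the insulin-like growth factor, had 13.1 control and 7.78 mimic reads. Prkcd, protein kinase C delta, had 10.5 and 8.55, which was 100% and 89.7% of all miRNA reads on that gene. Its single site lay 233 to 346 nt from the gene end in the control and 253 to 334 nt in the mimic, and 272 bases followed the 8-base match. Gsk3b, a kinase of glycogen synthase and beta-catenin, had 2 and 10.3 reads, a ratio of 5.15 (1.07 to 46.9), and Smad1 had 3.93 and 3.43. Ulk1, which starts autophagy, had 0.676 and 5.44 reads. Apart from Gsk3b, the interval of each of these ratios held 1. The ratios were not divided by the library totals, and each interval, that of Gsk3b included, held the 1.12 of those totals.

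**Figure D5:**
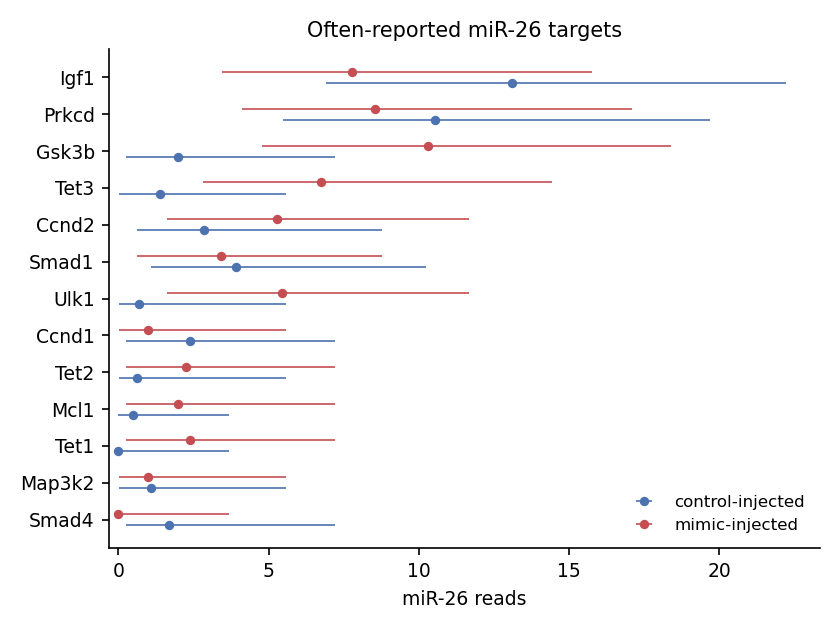
miR-26 reads on the often-reported targets with at least 1 read in either library, in the control (blue) and the mimic (red), with exact Poisson intervals; genes are ordered by their summed reads. Igf1 and Prkcd lead, and the intervals of the libraries overlap for each gene shown.

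Among chromatin and cell-cycle targets, Tet3, a DNA demethylase, had 1.37 control and 6.76 mimic reads, and Ccnd2, cyclin D2, had 2.86 and 5.27. Ezh2 had no miR-26 site in either library. A value of 0 here says only that no peak was listed. Of the host genes of the family, Ctdsp2 had 4.95 and 1.43 reads, and Ctdsp1 and Ctdspl had none. The control site of Ctdsp2, with 3.95 reads, lay 2372 to 2448 nt from the gene end, where 2403 bases followed a 7-base match.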

How the data were processed

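Ago2 chimeric eCLIP-seq of plantaris after MOV was read from 1 deposited file for each MOV library. The deposited values were estimated counts, the chimeric reads of 1 miRNA in 1 peak, which the authors did not scale to depth. Of them 17.4% in the control and 16.7% in the mimic were whole numbers, and the origin of the fractions was not given in the sources used here. The submitters' processing notes list UMI-tools 1.1.1, cutadapt 3.2, STAR 2.7.7a, Bowtie 1.2.3 and HOMER 4.11 and the build mm10, while the methods name mm9 and CLIPper peaks and an amplification with a miR-1 primer. Files held peaks called for each library.

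Peaks were given the RefSeq gene of GRCm38.p6 with the largest overlap on the same strand. Strands came from GRCm38 tables for 28096 genes and by name from GENCODE M1 for 8337, and 13560 genes had no known strand. Where no gene on the same strand overlapped, a gene of unknown strand was taken, so Rn18s-rs5, ND5 and Ccn2 were assigned without a check of strand. Of the peaks in each library, 99.0% had a gene. Sites were distinct peaks with miR-26a-5p and miR-26b-5p reads summed, and shared sites were mutual largest overlaps of at least 1 nt. Seed families were taken from RefSeq bases 2 to 8. Depth was the sum of chimeric reads, 232408 and 259207. PCR duplicates were removed by the authors. Intervals were exact Poisson for reads, Clopper-Pearson for shares, conditional binomial for ratios and order-statistic for medians, computed with scipy 1.17.1, numpy 2.4.6 and pandas 2.3.3 in Python 3.11.15 and tested on simulated data. No test between conditions was run.

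The members and gene lists were chosen with earlier results of these data known. Named genes were the 10 with the most family reads in each library, the 3 largest rises and falls among shared sites of 3 or more reads, the 3 strongest sites of each library alone, the 5 genes with the most sites and listed genes with a site of 3 or more reads. Some list members are not reported here and were left out of the lists and their sums. Other genes named (Mknk2, Mat2a, Otud1, Txnl1 and genes with few reads) and the search in transcripts were chosen after their values were seen. Alternatives were a minimum of 3 reads, omission of mitochondrial and ribosomal RNA loci, scaling, single members, other overlap rules and other counts of genes.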

Additional observations from a re-analysis of the deposited data

How the results depend on the processing

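A median site held 1 read, so weak sites carry wide counting intervals. No paired analysis was possible with 1 library for a group. The left and right plantaris of a mouse formed a pair by design. Whether both libraries came from the same mouse was not stated in the sources used here. Of 65 alternatives, 26 left the value within its interval or the count within 1.5 times and 39 moved it. Among those that moved, the median log2 ratio at shared sites changed sign after division by library totals, from 0.05 to -0.11. The search for the seed within peaks, and within peaks widened by 20 bases, was not run, since no genome of the build of the files was given.

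The matrix ratio was 0.884 without Col1a2. Its interval held 1 and the median of 1.05 over other miRNAs, but not the 1.12 of the library totals. The family's read ratio was 1.1 without Ttn and 1.02 after division by library totals, which also took the median log2 ratio at shared sites to -0.11. With a minimum of 3 reads for a line, the family's share of lines was 4.88% for the control and 4.87% for the mimic, the miR-26b-5p share of reads 13.1% and 13.9%, the share of its sites with miR-26a-5p 94.8% and 96.7%, the share of sites led by the family 78.9% and 73.7%, the share of control sites overlapped 61.6%, and the target genes 369, 372 and 224 in the control, the mimic and both. By reads, the family's share was 3.54% and 3.60%, and by lines the miR-26b-5p share was 27.5% and 26.2%. The overlap was 35.3% with 50% reciprocal overlap and 37.3% seen from the mimic. Genes with at least 2 sites numbered 498, 575 and 259. On reads as deposited, 35 sites were at least 2-fold higher and 14 lower, and with 10 or more reads in both libraries 2 were higher and 1 lower. The 7-base match to bases 2 to 8 stood in 36.9% of control and 36.99% of mimic genes of 3 or more reads, the 7-base match with A in 42.0% and 45.3%, and the 8-base match in the coding sequence in 8.98% and 9.79%. Sites over the distance of the match made up 33.5% and 32.1% of sites of any reads, 68.4% of control sites of 10 or more reads, and 70.1% and 79.5% of sites within the 3′ UTR length.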
